A study of Mus musculus with 12 samples.

Results

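The genes described here encode enzymes that turn arachidonic acid into prostaglandins and leukotrienes and, with *Alox5ap*, a partner protein of such an enzyme. The 10 genes are *Ptgs1*, *Ptgs2*, *Ptges*, *Ptges2*, *Ptges3*, *Hpgds*, *Tbxas1*, *Alox5*, *Alox5ap* and *Ltc4s*, of 41444 genes in the deposited table. They were listed by pathway, and the list was picked for the fall of *Ptgs1* in cells treated with LY2090314. All values of the 10 genes in this comparison are therefore given as a description with no test of their own.

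RNA was measured in pre-B cells from the bone marrow of *Ctnnb1* fl/fl mice, which were transformed with retroviral *BCR-ABL1* to give a model of B cell acute lymphoblastic leukemia (B-ALL). The compared cells carried the ERT2 control vector, which has no Cre, so the floxed gene of β-catenin stayed intact in both groups, and all of them received 4-OHT, the active metabolite of tamoxifen, at 1 µM for 2 days. The control group (ERT2, n = 3) received nothing else, and the treated group (ERT2 + LY2090314, n = 3) also received the GSK3β inhibitor LY2090314 at 40 nM for 1 day according to the labels, while the study's legend gives a shorter time in hours. The CreERT2 cells of the study are not analysed here. The age of the mice is not given in the sources used here.

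Arachidonic acid is cut from membrane phospholipids by phospholipases A2. Cyclooxygenases convert it into the intermediate PGH2, from which separate synthases make PGE2, PGD2 and thromboxane. In the other branch, 5-lipoxygenase, held at the nuclear membrane by its partner FLAP, makes leukotriene A4, which leukotriene A4 hydrolase turns into LTB4 and leukotriene C4 synthase into the cysteinyl leukotrienes. Mast cells, macrophages, neutrophils and platelets are the blood cells best known for these products.

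The values are rlog values, a log2 scale on which the authors divided read counts by library size factors and drew genes with few reads towards their mean, so that differences of low genes are understated. The libraries of a group differed by an SD across genes of 0.185 to 0.253, and libraries of different groups by at least 0.581. Treated samples 1 and 2 share the number that opens their column names, and what this number stands for is not given. They differed by 0.186, and each differed from treated sample 3 by 0.253. The closest pair of controls differed by 0.185. Treated samples 1 and 2 were counted as separate samples, and whether they are independent is not known. Of 12 precursor B cell markers, all 12 were detected in both groups, 10 were lower in treated cells, for example *Pax5* with a difference of −1.54, and 1 was higher, where 25.3% of all genes tested were lower and 24.8% higher (adjusted p under 0.05, limma). *Axin2*, a feedback gene of β-catenin, rose by 1.67 (adjusted p = 1.5e-05, limma). In bulk samples, fewer cells expressing a gene and less of its RNA per cell cannot be told apart.

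Upstream sequences are shown for both cyclooxygenases, one expressed and one near the floor of the scale, and for *Ptges2*, a PGE synthase gene that was lower in treated cells. They are the 250 bases before the RefSeq start site on GRCm38.p6, read 5′ to 3′ on the strand of the gene, which is the plus strand in each case. Capitals mark the Ikaros core GGGAA, the E-box CACGTG bound by MYC and the GC box GGGCGG, searched on both strands. The TCF/LEF core CTTTGA was searched as well and had no match in these sequences. The windows lie at chr2:36230176-36230425 for *Ptgs1*, chr1:150099781-150100030 for *Ptgs2* and chr2:32395640-32395889 for *Ptges2*.
Ptgs1: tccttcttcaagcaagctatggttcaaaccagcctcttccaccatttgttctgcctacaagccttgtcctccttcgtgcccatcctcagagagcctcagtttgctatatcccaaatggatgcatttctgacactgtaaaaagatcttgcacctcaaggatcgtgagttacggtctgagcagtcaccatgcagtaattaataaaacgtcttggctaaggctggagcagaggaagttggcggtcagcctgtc
Ptgs2: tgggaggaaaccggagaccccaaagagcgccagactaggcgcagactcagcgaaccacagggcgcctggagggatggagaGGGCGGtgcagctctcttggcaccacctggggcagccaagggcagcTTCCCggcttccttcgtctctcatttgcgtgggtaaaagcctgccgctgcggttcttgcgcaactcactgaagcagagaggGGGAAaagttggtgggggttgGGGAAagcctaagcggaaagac
Ptges2: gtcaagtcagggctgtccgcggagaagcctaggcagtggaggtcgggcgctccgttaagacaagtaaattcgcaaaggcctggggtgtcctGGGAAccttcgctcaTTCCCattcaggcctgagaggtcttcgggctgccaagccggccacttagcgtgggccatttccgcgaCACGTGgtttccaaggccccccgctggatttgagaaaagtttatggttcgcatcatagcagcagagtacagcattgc

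None of the 4 motifs was in the *Ptgs1* window. *Ptgs2* had 3 Ikaros cores and 1 GC box, and *Ptges2* had 2 Ikaros cores and 1 E-box starting 77 bases before the start site. Over 32851 windows of this length before RefSeq start sites, 56.2% held the Ikaros core, 32.7% the GC box, 13.8% the TCF/LEF core and 6.02% the E-box. G and C made up 48.0% of the *Ptgs1* window and 73.2% of the *Ptges3* window, against a median of 52.4%. A window was found for 9 of the 10 genes, all except *Alox5ap*. The window of *Hpgds* also held none of the 4 motifs, and that of *Ptges3* held 2 Ikaros cores and 3 GC boxes. These windows are not printed, since the GENCODE start of each gene lies inside its window. A match is a run of letters and does not show that a factor binds there.

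LY2090314 moved the expressed genes of the pathway in both directions. The cyclooxygenase gene *Ptgs1* fell 7.50-fold when the log2 values were turned back to linear ones, *Alox5ap*, which encodes FLAP, rose 4.59-fold, and *Hpgds*, which encodes a PGD2 synthase, rose 2.14-fold. The PGE synthase genes *Ptges2* and *Ptges3* fell by 0.61 and 0.53 on the log2 scale. The other 5 genes, *Ptgs2*, *Ptges*, *Tbxas1*, *Alox5* and *Ltc4s*, had no level that could be read in either group. *Tbxas1*, *Ptgs2* and *Ptges* lay at −2.28, −2.12 and −1.90, and *Alox5* and *Ltc4s* were listed at 0. The listed 0 is not read as a level above the negative values.

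Of the 10 genes, 5 had a mean rlog value of at least 3 and were tested, and each of these 5 passed that limit in the control and in the treated group alone. All 5 passed an adjusted p of 0.05 in the limma fit across all genes, 2 higher and 3 lower, where 50.1% of the 11536 genes tested passed, 24.8% higher and 25.3% lower. The groups did not overlap in any of the 5, as in 58.6% of all genes. With a log2 difference of at least 1 also required, 3 of the 5 passed, 2 higher and 1 lower, against 6.01% of all genes, 4.14% higher and 1.86% lower. Since the list was picked in this comparison, nothing is read from these counts. The median difference of the 5 genes was −0.53, and that of all genes tested was 0.012.

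**Figure D1:**
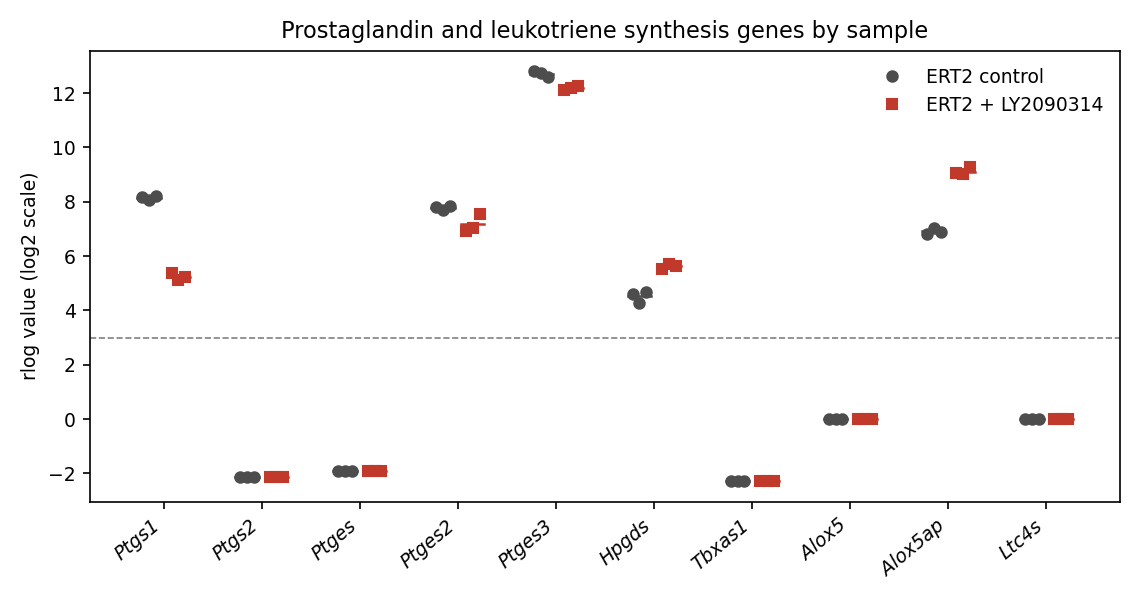
Rlog value (log2 scale) of each of the 10 genes in the 3 ERT2 control samples (grey circles) and the 3 ERT2 samples with LY2090314 (red squares), with a short line at each mean and a dashed line at the limit of 3. *Ptgs1* sits near 8 in control and near 5 in treated samples, *Alox5ap* and *Hpgds* are higher in treated samples, and 5 genes lie at or below 0 in every sample.

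*Ptgs1* (ENSMUSG00000047250, chromosome 2 of GRCm38, 36230426 to 36252272, plus strand, 11 merged exons) encodes COX1, the cyclooxygenase that most tissues express without stimulation. Its rlog values were 8.19, 8.05 and 8.20 in the control samples and 5.36, 5.12 and 5.23 in the treated samples. Every treated sample lay well below every control sample. The means were 8.15 ± 0.085 and 5.24 ± 0.12 (SD, n = 3 each), a log2 difference of −2.91 (standard error 0.097). Only 2 of the 11536 genes tested had a lower difference. The summed level of the 12 precursor B cell markers also differed, at 16.34 to 16.36 in control and 15.76 to 15.91 in treated samples, and its part in the fall of *Ptgs1* was not tested. *Gm43621*, a transcript on the other strand, shares 148 exon bases with *Ptgs1* and is not analysed here. The library kit keeps strand, but whether the authors' quantification used it is not given in the sources used here.

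*Ptgs2* (ENSMUSG00000032487, chromosome 1, 150100031 to 150108227, plus strand) encodes COX2, the cyclooxygenase that inflammatory signals induce. Its values lay at −2.12 in all 6 samples, identical to within 0.02, so no level could be read in either group. *Ptgs1* was thus the only cyclooxygenase gene with a measurable transcript in these cells.

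Of the 3 PGE synthase genes, 2 were detected. *Ptges* (chromosome 2, 30889471 to 30929863, minus strand), which encodes the inducible microsomal enzyme, lay at −1.90 in all 6 samples. *Ptges2* (ENSMUSG00000026820, chromosome 2, 32395896 to 32405772, plus strand), which encodes a membrane-associated enzyme, had values of 7.82, 7.69 and 7.83 in control samples and of 6.93, 7.03 and 7.54 in treated samples. The groups did not overlap, but treated sample 3 stood closer to the controls than the treated pair with a shared opening number. Its difference was −0.61 (standard error 0.16). Without treated sample 3 it was −0.80, and with the pair averaged as 1 sample it was −0.52.

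*Ptges3* (ENSMUSG00000071072, chromosome 10, 128058954 to 128077272, plus strand) encodes p23, a co-chaperone of HSP90 that also has PGE synthase activity. Its values were 12.80, 12.75 and 12.59 in control and 12.10, 12.20 and 12.27 in treated samples, with no overlap. The difference was −0.53 (standard error 0.072). The processed pseudogene *Ptges3-ps*, which can share reads with *Ptges3*, had values of 9.08, 8.80 and 8.51 in control and of 7.62, 8.09 and 8.47 in treated samples. The values of the gene and its copy are therefore uncertain where reads could be assigned to either.

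*Hpgds* (ENSMUSG00000029919, chromosome 6, 65117293 to 65144908, minus strand) encodes the hematopoietic PGD2 synthase, known from mast cells and some T cells. Its values were 4.61, 4.27 and 4.67 in control samples and 5.52, 5.70 and 5.64 in treated samples. All 3 treated samples were above all 3 controls. The means were 4.52 ± 0.21 and 5.62 ± 0.092 (SD, n = 3 each), a difference of 1.10 (standard error 0.12). *Tbxas1* (chromosome 6, 38875404 to 39084585, plus strand), the thromboxane synthase gene of platelets and macrophages, lay at −2.28 in all 6 samples.

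In the leukotriene branch, the gene of FLAP was detected, while those of the enzyme it serves and of leukotriene C4 synthase were not. *Alox5ap* (ENSMUSG00000060063, chromosome 5, 149264767 to 149288153, plus strand) had values of 6.83, 7.03 and 6.89 in control samples and of 9.04, 9.03 and 9.27 in treated samples. The groups were far apart relative to their spread. The means were 6.92 ± 0.10 and 9.11 ± 0.14 (SD, n = 3 each), a difference of 2.20 (standard error 0.096), which ranked 104 from the highest of the 11536 genes. *Alox5* (ENSMUSG00000025701, chromosome 6, 116410077 to 116461178, minus strand), which encodes 5-lipoxygenase, and *Ltc4s* (chromosome 11, 50236461 to 50238616, minus strand), which encodes leukotriene C4 synthase, were listed at 0 in all 6 samples. So were 21786 of the 41444 genes in the table. *Gm19719* on the other strand shares 189 exon bases with *Alox5ap* and is not analysed here.

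**Figure D2:**
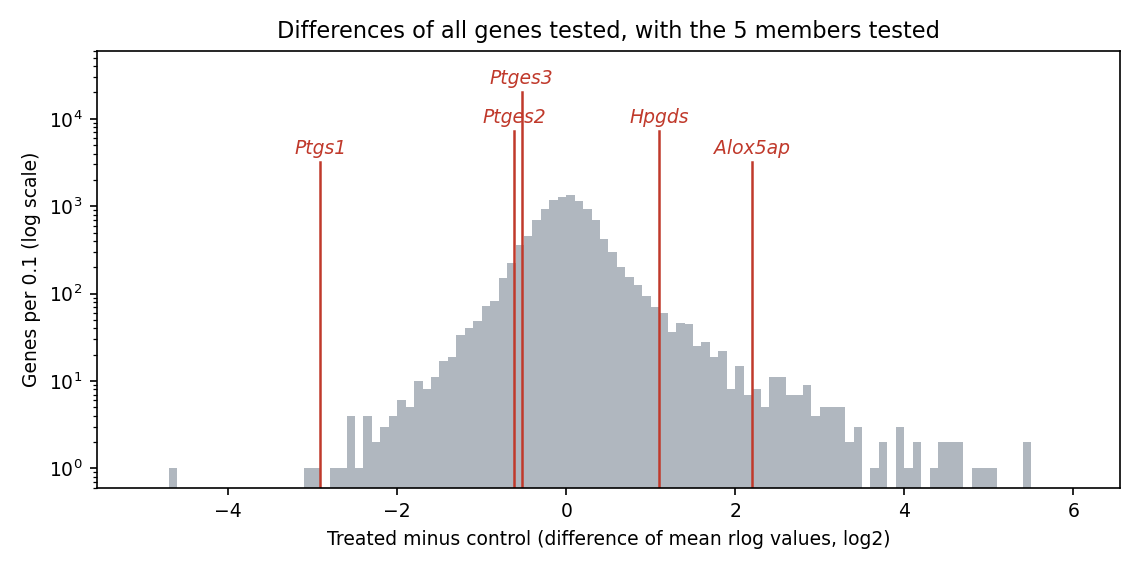
Number of genes (log scale) by the difference of the mean rlog values, treated minus control, for the 11536 genes tested in bins of 0.1, with red lines at the 5 pathway genes tested. *Ptgs1* at −2.91 and *Alox5ap* at 2.20 lie in the tails, *Hpgds* at 1.10 lies between, and *Ptges2* and *Ptges3* lie on the left shoulder of the distribution.

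To compare levels between genes, the log2 of the merged exon length in kilobases was subtracted from each rlog value. In control samples, *Ptges3* had the highest level per length (11.57 ± 0.11), followed by *Alox5ap* (6.41 ± 0.10), *Ptgs1* (6.19 ± 0.085), *Ptges2* (5.44 ± 0.079) and *Hpgds* (1.84 ± 0.21; SD, n = 3 each). Neighbours in this order did not overlap, but the place of *Alox5ap* before *Ptgs1*, a gap of 0.22, depended on the length used. With the longest annotated transcript, *Ptgs1* (6.63) stood before *Alox5ap* (6.59). In treated samples *Alox5ap* (8.61 ± 0.14) stood far above *Ptgs1* (3.28 ± 0.12), and *Ptges2* (4.83 ± 0.33) was above *Ptgs1* as well. Per length, *Alox5ap* exceeded *Ptgs1* by 0.090, 0.44 and 0.14 in the control samples and by 5.14, 5.36 and 5.49 in the treated samples. *Hpgds* had the lowest mean per length of the 5 in both groups, and this mean minus that of *Ptgs1* was −4.35 in control and −0.35 in treated samples. With the longest transcript, *Hpgds* (3.56, 3.74 and 3.68) and *Ptgs1* (3.84, 3.60 and 3.71) overlapped in treated samples.

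**Figure D3:**
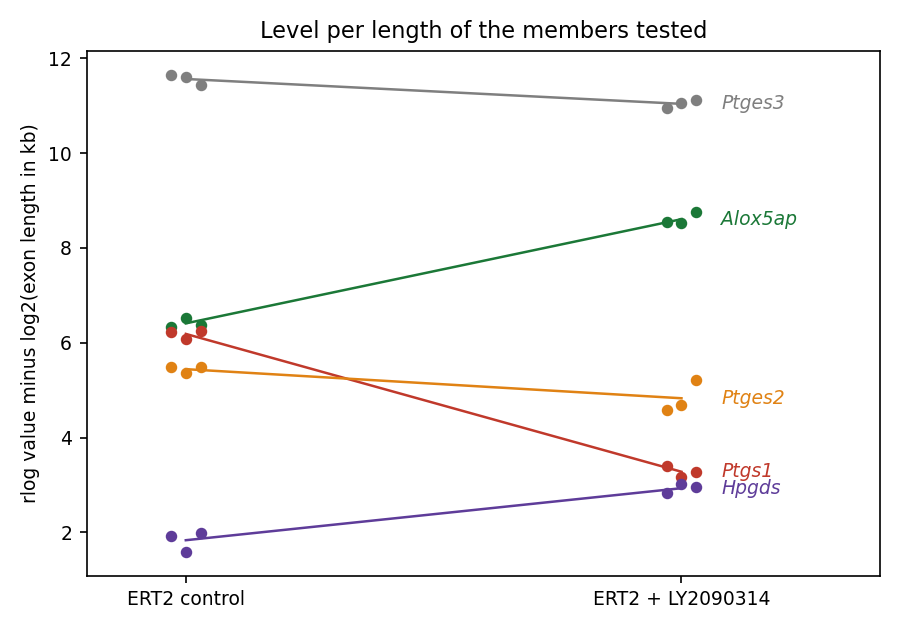
Rlog value minus log2 of the merged exon length in kilobases for the 5 expressed pathway genes, with points for the 3 samples of each group and lines between the group means. The lines of *Alox5ap* and *Ptgs1* start close together at 6.41 and 6.19 in control cells and end at 8.61 and 3.28 with LY2090314.

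The nearest tested genes on either side of *Ptgs1* and *Alox5ap* differed far less between the groups. *Mrrf*, 39778 bases from *Ptgs1*, differed by −0.22 (adjusted p = 0.063, limma). On the other side *Gm13436*, 555553 bases away and low at means of 3.71 and 3.98, differed by 0.27 (adjusted p = 0.14, limma). *Uspl1* and *Hsph1*, 49332 and 326133 bases from *Alox5ap*, differed by 0.13 and −0.22 (adjusted p of 0.077 and 0.26, limma). Beside *Hpgds*, *Smarcad1* rose by 0.22 (adjusted p = 0.033, limma). Beside *Ptges3*, *Atp5b* fell by 0.39 (adjusted p = 0.0051, limma), and *Naca* differed by 0.024 (adjusted p = 0.86). Beside *Ptges2*, *1110008P14Rik* rose by 0.67 (adjusted p = 0.00066, limma), against the direction of *Ptges2*, and *Slc25a25* differed by −0.12 (adjusted p = 0.13). Of the 10 pathway genes, 3 lie on chromosome 2 and 3 on chromosome 6.

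The genes with the pattern most like that of *Ptgs1* included *Myc*. Likeness was measured as the distance over the 6 samples between values centred on the mean of each gene, where 0 is the same pattern. Among 11535 genes, *Myc*, the transcription factor gene on which the study centres, was at a distance of 0.39 and *Smtnl2* at 0.46. *Myc* went from 11.84, 11.77 and 11.76 to 9.15, 9.17 and 9.13, and *Smtnl2* from 8.11, 8.11 and 8.12 to 5.63, 5.54 and 5.49. With 3 samples a group, this distance mainly ranks genes by how close the size of their difference is.

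Other genes of the eicosanoid pathway were grouped by role into a list of 113, of which 109 were matched in the table and 46 were tested. Of these 46, 11 were higher and 15 lower in treated cells and 20 did not pass (limma, adjusted p under 0.05 over all genes), which is 56.5% called against 50.1% of all genes. Their median difference was −0.098. Without control sample 1 the number called fell to 17, and it was 19 to 28 without each of the other samples.

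Among 13 tested phospholipases and related lipid hydrolases, 2 were higher and 5 lower. *Pla2g16*, a phospholipase of adipose tissue also known as *Plaat3*, rose from 7.84 ± 0.10 to 8.96 ± 0.10 (SD, n = 3 each; difference 1.12, adjusted p = 2.35e-05, limma). *Mgll*, the monoacylglycerol lipase that releases arachidonic acid from an endocannabinoid, fell from 6.64 ± 0.091 to 5.38 ± 0.077 (difference −1.26, adjusted p = 2.0e-05, limma). *Pla2g4a*, which encodes the cytosolic phospholipase A2 that chiefly feeds this pathway, was named after its values were seen. It fell by 0.34 (adjusted p = 0.023, limma), a call lost without control sample 1 (−0.29, adjusted p = 0.079), control sample 2 (−0.36, adjusted p = 0.053) or treated sample 1 (−0.25, adjusted p = 0.067). The secreted form *Pla2g12a*, also named afterwards, fell by 0.81 (adjusted p = 0.00023, limma).

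Of 11 tested genes of arachidonate handling, fatty acid desaturases and an elongase among them, 3 were higher and 3 lower. *Acsl4*, the acyl-CoA synthetase that prefers arachidonic acid, rose from 11.37, 11.26 and 10.96 to 12.63, 12.69 and 12.53. Its difference was 1.42 (standard error 0.10, adjusted p = 2.0e-05, limma), the largest rise of the 46 genes. *Acsl3*, a related synthetase, fell by 0.53 (adjusted p = 0.00032, limma).

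Of the other synthase genes 4 were tested, with 2 higher and 1 lower. *Lta4h*, the leukotriene A4 hydrolase gene, stood at 12.46 ± 0.065 and 12.30 ± 0.071 (SD, n = 3 each). Its difference of −0.16 (adjusted p = 0.047, limma) was not past the threshold when any sample but treated sample 3 was left out (adjusted p of 0.068 to 0.15). The microsomal glutathione transferases *Mgst2* and *Mgst3*, relatives of *Ltc4s* that can also make leukotriene C4, were higher by 0.32 (adjusted p = 0.0082) and 0.34 (adjusted p = 0.031, limma). The call of *Mgst3* was lost without control sample 1 or 3 or treated sample 2 or 3, at differences of 0.34, 0.29, 0.34 and 0.26. None of the 6 other lipoxygenase genes listed reached a mean of 3.

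For inactivation and transport, 3 of 11 tested genes were higher and 4 lower. *Cyp4f18*, a cytochrome P450 that oxidizes LTB4, fell from 10.83 ± 0.18 to 9.88 ± 0.12 (SD, n = 3 each; difference −0.95, adjusted p = 0.00012, limma). *Slco4a1*, an organic anion transporter, rose by 0.92 (adjusted p = 0.00070, limma), with treated sample 3 at 10.19 against 10.71 and 10.67 in the other treated samples. *Abcc4*, a pump that exports prostaglandins and was named after its values were seen, fell by 0.36 (adjusted p = 0.00097, limma). *Hpgd*, the main prostaglandin-inactivating dehydrogenase gene, was listed at 0 in all 6 samples.

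Of 7 tested receptors, 1 was higher and 2 were lower. *Cysltr1*, a receptor for cysteinyl leukotrienes, had values of 6.41, 6.42 and 5.86 in control and 5.65, 5.55 and 5.74 in treated samples. Its difference was −0.58 (adjusted p = 0.017, limma), and the call was lost without control sample 1 (−0.49, adjusted p = 0.059), control sample 2 (−0.49, adjusted p = 0.062) or treated sample 2 (−0.54, adjusted p = 0.054). *Ptger2*, a PGE2 receptor gene, was higher by 0.32 (adjusted p = 0.033, limma), a call lost without any one of 5 samples, control sample 3 being the exception (differences of 0.23 to 0.36, adjusted p of 0.054 to 0.096). *Ptger4*, another PGE2 receptor gene, stood at 9.27 ± 0.049 and 9.42 ± 0.043 (difference 0.14, adjusted p = 0.070, limma). The thromboxane receptor gene *Tbxa2r* fell by 0.56 (adjusted p = 0.0096, limma). *Ptger4* and *Tbxa2r* were named after their values were seen.

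**Figure D4:**
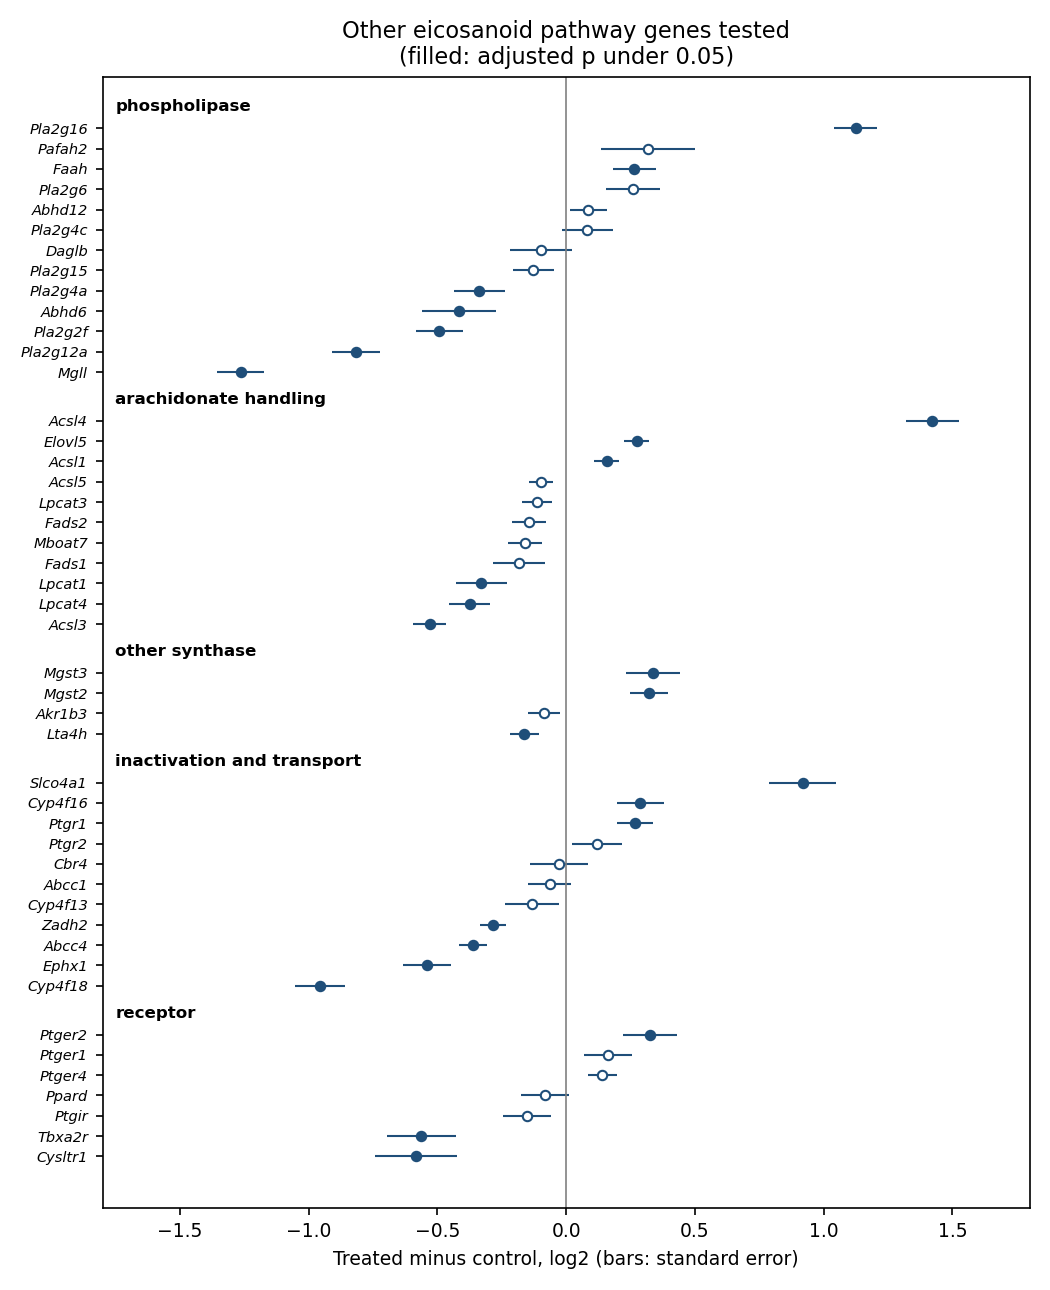
Difference of mean rlog values, treated minus control (log2), for the 46 other eicosanoid pathway genes tested, grouped by role, with bars for the standard error from limma and filled points for an adjusted p under 0.05. *Acsl4* at 1.42 and *Pla2g16* at 1.12 stand farthest to the right, and *Mgll* at −1.26 farthest to the left.

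Since these enzymes are known from other blood cells, markers of those cells were read beside them. Of 9 mast cell and basophil markers 8 were listed at 0 in all samples, *Cpa3*, *Fcer1a* and *Gata2* among them, and *Kit* was below a mean of 3. Of 7 platelet markers and of 5 erythroid markers, 0 reached a mean of 3, and the summed level of the platelet list was 3.47 to 3.52 in control and 3.45 to 3.46 in treated samples, while that of the erythroid list was at most 3.09 and 3.01. Of 8 neutrophil markers 6 were listed at 0, *Mpo*, *Elane* and *S100a8* among them, while *Ly6g* rose from 3.48 to 6.45 (adjusted p = 1.3e-07, limma). Of 8 monocyte and macrophage markers 3 were tested, and *Lyz2* rose by 0.53 (adjusted p = 0.0023, limma). The other tested markers, *Mpeg1* (difference 0.16, adjusted p = 0.12) and *Cd68* (0.017, adjusted p = 0.89, limma), did not pass, and *Adgre1* was listed at 0. Of 6 T cell markers only *Lck* was tested, which rose by 0.95 (adjusted p = 2.2e-05, limma). On the log2 scale, the summed level of the mast cell list was 3.52 in control samples and 3.61 to 3.67 in treated samples. That of the neutrophil list was 4.13 to 4.17 and 6.52 to 6.61, and that of the monocyte list 6.48 to 6.63 and 6.89 to 6.97. The T cell list summed to 11.36 to 11.47 and 12.26 to 12.51, nearly the same ranges as *Lck* alone. Sums were made on the linear scale, where a gene listed at 0 still adds to them. The mast cell sum thus holds 8 genes listed at 0 and *Kit*. Those of the neutrophil, platelet, erythroid and monocyte lists also hold such genes, and no sum is read as the level of a cell type. The part of these cell types in the rises of *Hpgds* and *Alox5ap* was not tested.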

How the data were processed

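RNA-seq of *BCR-ABL1* transformed *Ctnnb1* fl/fl pre-B cells was analysed in ERT2 control cells and ERT2 cells with LY2090314 (n = 3 each). The authors deposited rlog values, on a log2 scale, for 41444 genes. By the paper's methods, they used Salmon, STAR and GENCODE on GRCm38, and DESeq2 (1.30.1 in the submitters' processing notes). Which samples entered the transformation is not given in the sources used here. Without read counts the depth is unknown. Of 12 columns, 6 were matched to a group by name, and the other 6, whose names combine Cre and LY, were not used. Samples are numbered in table order.

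Genes with a mean rlog of at least 3 (11536 genes) were fitted with limma 3.58.1 in R 4.3.3 (mean-variance trend, Benjamini-Hochberg adjustment, threshold 0.05). The fit was tried on simulated independent samples with 200 changed genes. In the real data 5778 genes were called, so the simulation does not give the error rate here. The study's legend describes the replicates as mice and the labels do not, so p-values measure the spread between these samples. Symbols were matched to 41157 identifiers. Positions and exon lengths came from GENCODE on GRCm38, and upstream sequences from RefSeq on GRCm38.p6. The members, gene lists and motifs were chosen with earlier results of these data known. Of the other pathway genes, those called with a log2 difference of at least 1 are named for each role, otherwise the largest called rise and fall, and for *Ptgs1* the 3 genes at the smallest distance, of which 1 is not reported here. Alternatives were no trend, no limit or a limit of 5 on the mean, median centring and quantile normalization. Others were leaving out each sample, averaging the treated pair with a shared opening number, a log2 limit of 1 and a threshold of 0.01.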

Additional observations from a re-analysis of the deposited data

How the results depend on the processing

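The 14 alternatives changed no direction among the 5 tested members. The difference lay between −3.01 and −2.85 for *Ptgs1*, between 2.12 and 2.26 for *Alox5ap*, between 0.98 and 1.17 for *Hpgds*, between −0.80 and −0.49 for *Ptges2* and between −0.59 and −0.48 for *Ptges3*. All 5 passed in each alternative except the stricter call rules. In the main fit 50.1% of all genes tested passed. As the list was picked in this comparison, nothing is read from the calls of its members. With a log2 difference of at least 1, *Ptges2* (−0.61) and *Ptges3* (−0.53) did not pass, which left 3 members, and at a threshold of 0.01 *Ptges2* (−0.61) did not. The other pathway genes called fell from 26 to 17 without control sample 1 (17 to 28 over all samples left out), to 15 at a threshold of 0.01 and to 3 with the log2 limit of 1, which left 693 of the 5778 genes called overall. With the longest transcript, 3 of 5 members kept their place by level. The calls of *Cysltr1*, *Lta4h*, *Mgst3* and *Ptger2* were also lost with no limit on the mean, those of *Mgst3* (0.25) and *Ptger2* (0.22) with quantile normalization, that of *Lta4h* with no trend, and those of *Lta4h* and *Ptger2* with the pair averaged. Quantile normalization called 5907 genes, 43.4% of them higher against 49.5%. The depth is unknown, so what it limits was not assessed. No paired analysis was possible because the replicate numbers of the titles are not in the column names.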

Other observations

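The patterns most like those of the other genes with a large difference were looked up in the same way, as values only and after the results were seen. For *Alox5ap*, the closest of 11535 genes were *Slfn1*, a Schlafen family gene (distance 0.17), *Raph1* (0.20) and *Ly6c2* (0.23). *Raph1*, which encodes lamellipodin, went from 7.42 ± 0.051 to 9.75 ± 0.14 and *Ly6c2*, a surface antigen of inflammatory monocytes and some lymphocytes, from 3.17 ± 0.12 to 5.20 ± 0.098 (SD, n = 3 each).

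For *Hpgds*, the closest were *Casp1*, the inflammatory caspase gene (distance 0.18), *Pon3*, a paraoxonase gene (0.20), and *Smad1*, a BMP signalling gene (0.21). *Casp1* went from 5.09 ± 0.20 to 6.08 ± 0.16 and *Pon3* from 8.65 ± 0.14 to 9.71 ± 0.052 (SD, n = 3 each).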
